A study of Homo sapiens with 6 samples.

Results

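The clustered histone genes of MOLM-13 cells were followed after treatment with UC-764864. MOLM-13 is a human acute myeloid leukaemia line, and the series title gives UC-764864 (UC64 in the sample labels) as a UBE2N inhibitor, UBE2N being an enzyme that conjugates ubiquitin. Poly(A) RNA was sequenced from 3 libraries of cells given 2 µM UC-764864 for 24 h (UDI0051, UDI0052 and UDI0053) and from 3 libraries of cells given the solvent DMSO for 24 h (UDI0054, UDI0055 and UDI0056). Both groups were cultures of the same line in the same medium, and nothing in the labels ties a library to its own culture, so the p-values cover the variation among these 6 libraries, part or all of which may be technical. Members were chosen by symbol and by their total count over all 6 libraries. The table lists 89 symbols of the clustered family (HIST1H to HIST4H), of which 45 had 10 or more counts in total and are the members, among 56638 rows in all. Another 15 symbols had 1 to 9 counts and 29 were at 0 in every library. Of the members, 38 belong to the HIST1 cluster on chromosome 6, 5 to HIST2 on chromosome 1, 1 to HIST3 and 1 to HIST4, and 3 are pseudogenes (HIST2H2BC, HIST2H2BD and HIST1H3PS1).

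Histones package DNA into nucleosomes: H2A, H2B, H3 and H4 form the core, and the linker histone H1 binds the DNA between cores. The clustered genes are the replication-dependent supply. They are transcribed in S phase under NPAT, with the octamer factor POU2F1 acting on H2B promoters, and their mRNAs typically end in a conserved stem-loop, bound by SLBP, in place of a poly(A) tail. Selection for poly(A) therefore captures this family mainly as polyadenylated forms, which some of these genes also make by reading through the stem-loop to a downstream signal, in particular in cells that leave the cycle or differentiate. The values below describe what such libraries hold and are not a census of histone mRNA. They come from whole cultures, so fewer cells that express a gene and less RNA per cell cannot be told apart.

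The stem-loop is shown first, because it is the element that sets this family apart in a poly(A) library. It was found in a GENCODE v29 transcript of 22 of the 45 members, in 6 forms, with the stem bases in capitals and the loop in lower case. The form of HIST1H2AC was shared by 11 members of the H2A, H2B and H3 classes, and the other forms differed from it in the loop or in the stem.
HIST1H2AC: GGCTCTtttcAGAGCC
HIST1H2BC: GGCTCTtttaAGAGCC
HIST1H2AG: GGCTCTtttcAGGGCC
HIST1H3E: GGCTCTtctcAGAGCC
HIST1H4H: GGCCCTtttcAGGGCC
HIST1H4I: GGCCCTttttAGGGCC
In 18 members an annotated transcript ran at least 100 bases past the stem-loop, by 1128 bases in HIST1H2AC, 1729 in HIST2H2BE, 1761 in HIST1H2AG and 769 in HIST1H3H. A poly(A) signal (AATAAA or ATTAAA) stood in the last 40 bases of a transcript of 16 members. These members had a median total of 113 counts, against 29 counts for the other 29 members. Summed, the order was the reverse: the 16 held 3630 counts (44.8%) and the other 29 held 4470 (55.2%). The latter include HIST1H2BK with 2384 counts and HIST1H1C with 1197. The v29 models of HIST1H1C, HIST1H3D and HIST1H2BK, of 642, 411 and 381 bases, hold no stem-loop. A model that ends early can show neither a stem-loop nor a poly(A) signal, so absence from a model is not absence from the gene.

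The promoters of 4 members are printed because HIST1H2AC, HIST2H2BE and HIST1H1C fell under UC-764864 while HIST1H2BK, which took the most counts of the family, did not pass the test. Each window runs from 250 bases before to 50 bases after the annotated start (RefSeq, GRCh38.p14), read 5′ to 3′ on the gene's own strand, and capitals mark the octamer ATTTGCAT, CCAAT and TATAAA on either strand. The windows are chr6:26123922-26124221 on the plus strand for HIST1H2AC, chr1:149886633-149886932 on the minus strand for HIST2H2BE, chr6:26056421-26056720 on the minus strand for HIST1H1C and chr6:27146806-27147105 on the minus strand for HIST1H2BK.
HIST1H2AC: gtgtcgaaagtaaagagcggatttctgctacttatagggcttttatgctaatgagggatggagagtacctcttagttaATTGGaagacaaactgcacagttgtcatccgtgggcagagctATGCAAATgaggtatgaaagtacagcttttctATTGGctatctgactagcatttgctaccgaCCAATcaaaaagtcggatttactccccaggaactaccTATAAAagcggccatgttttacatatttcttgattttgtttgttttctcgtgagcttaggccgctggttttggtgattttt
HIST2H2BE: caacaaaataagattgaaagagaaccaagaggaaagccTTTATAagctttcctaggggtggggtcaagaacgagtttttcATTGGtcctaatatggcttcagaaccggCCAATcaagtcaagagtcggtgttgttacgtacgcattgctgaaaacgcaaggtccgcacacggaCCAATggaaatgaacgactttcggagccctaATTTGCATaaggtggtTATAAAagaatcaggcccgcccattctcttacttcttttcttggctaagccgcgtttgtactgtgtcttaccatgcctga
HIST1H1C: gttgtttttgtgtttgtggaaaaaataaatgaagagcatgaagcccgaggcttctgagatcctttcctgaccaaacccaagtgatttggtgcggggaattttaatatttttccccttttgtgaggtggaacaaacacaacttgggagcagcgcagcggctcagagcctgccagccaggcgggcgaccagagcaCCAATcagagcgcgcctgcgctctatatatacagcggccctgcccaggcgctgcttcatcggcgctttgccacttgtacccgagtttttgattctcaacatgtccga
HIST1H2BK: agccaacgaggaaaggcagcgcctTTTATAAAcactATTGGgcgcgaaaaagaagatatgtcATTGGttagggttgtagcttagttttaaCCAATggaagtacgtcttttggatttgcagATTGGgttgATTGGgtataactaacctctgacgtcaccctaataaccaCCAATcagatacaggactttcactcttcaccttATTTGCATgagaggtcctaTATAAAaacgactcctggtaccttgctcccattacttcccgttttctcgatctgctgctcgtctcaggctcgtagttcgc
The octamer lay in the windows of HIST1H2AC, HIST2H2BE and HIST1H2BK, and no match to it lay in that of HIST1H1C. In HIST1H2BK a pair of TATAAA matches on opposite strands overlap each other, and no match of one motif overlapped a match of another in any member's window. RefSeq windows were matched to 37 members. The octamer was in a window of 17 of these (45.9%), against 1.77% of all 35116 windows, and these 17 were 10 of 13 H2B, 6 of 9 H2A and 1 of 6 H3 members. CCAAT was found for 32 members (86.5%), against 34.6% of all windows, and TATAAA for 25 (67.6%), against 11.5%. Among the 6 H4 members with a window, 1 had CCAAT, whereas every matched H1, H2A, H2B and H3 member did. Members that share a start also share most of their window, so these counts are not over independent sequences.

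The 45 members took fewer counts in treated cells. Counts were scaled to CPM, counts per 1000000 of the library's counts in the genes tested below, after TMM scaling of that total. The members' CPM summed to 49.6, 49.1 and 57.1 in the UC-764864 libraries and to 91.2, 73.0 and 86.1 in the DMSO libraries. The groups did not overlap, with a mean of 51.9 ± 4.47 CPM in UC-764864 against 83.4 ± 9.37 CPM in DMSO (SD, n = 3 each), a ratio of 0.623. HIST1H2AC carried a large part of this gap: without it the sums were 46.2 ± 3.10 CPM in UC-764864 and 60.9 ± 5.45 CPM in DMSO, a ratio of 0.759. Without the 4 members that passed the test the ratio was 0.829. No p is given for these sums, which depend on the members chosen. Over the same libraries the RNAs of another list that lack a poly(A) tail (small nuclear, nucleolar and similar RNAs) summed to 45.3, 45.3 and 61.5 CPM in UC-764864 and to 42.0, 43.9 and 48.4 CPM in DMSO.

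**Figure D1:**
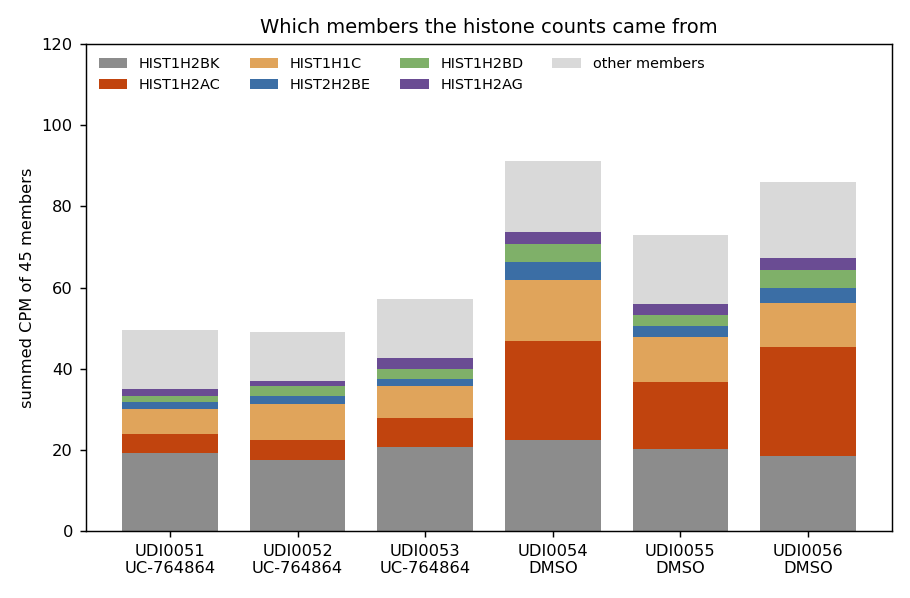
Summed CPM of the 45 clustered histone members in each library, UC-764864 libraries left and DMSO libraries right, with segments for the leading members and the rest. The UC-764864 bars reach 49.6, 49.1 and 57.1 and the DMSO bars 91.2, 73.0 and 86.1, and the HIST1H2AC segment is smaller in each UC-764864 bar than in any DMSO bar.

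Of the 45 members, 17 had enough counts to be tested with edgeR's quasi-likelihood test, and 4 of them were lower at an adjusted p under 0.05, against 8.13% of all 13490 genes tested. None of the 17 was higher, against 5.11% of all genes. At an unadjusted p under 0.05, 8 members were lower, against 16.6% of all genes, and 1 was higher, against 14.9%. DESeq2 called 5 members lower, against 10.2% of all genes, and 0 higher, against 6.35%. With limma-voom 4 were lower, against 7.51%, and 0 higher, against 5.23%. The log2 fold change (UC-764864 over DMSO) was negative in 14 of the 17, with a median of -0.46 against 0.01 over all genes tested. Across all 45 members, the UC-764864 libraries lay below every DMSO library for 9, against 15.6% of the 17063 rows with at least 10 counts that all libraries hold, and above for 1 (HIST1H2BH), against 16.3%. The 9 of 45 is near that background. The calls came from 4 classes: 1 of 3 tested H1 members, 1 of 3 H2A, 1 of 7 H2B, 1 of 2 H3 and 0 of 2 H4. The H3 call, HIST1H3D, had enough counts for the test only through its DMSO libraries. Over all genes tested, 690 were higher and 1097 lower with TMM scaling, against 508 higher and 1271 lower with library size alone, and the same 4 members were called under both.

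**Figure D2:**
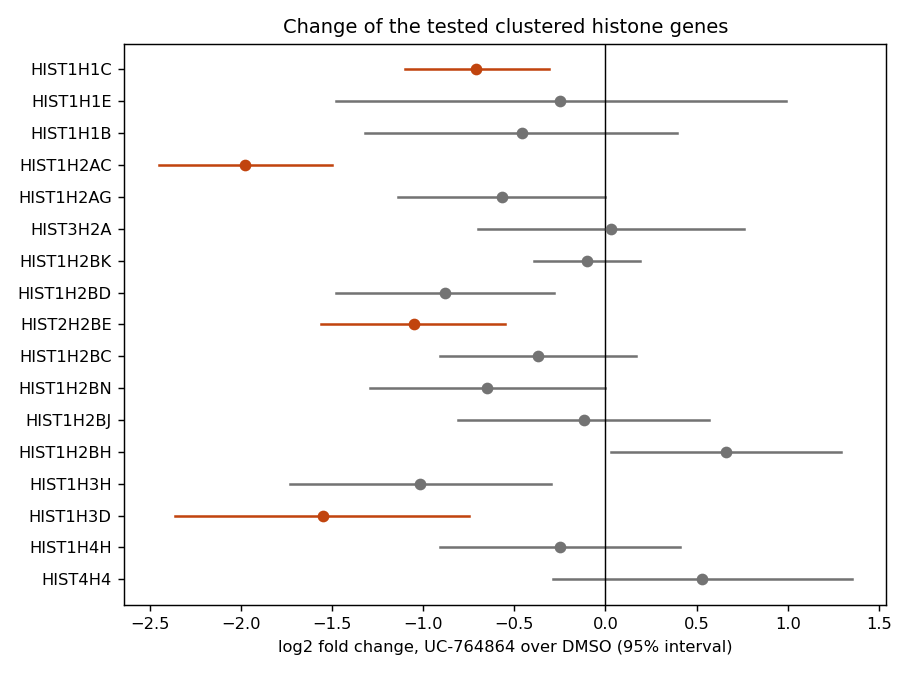
Log2 fold change of UC-764864 over DMSO for the 17 tested members, with 95% intervals as bars and called members in orange. HIST1H2AC lies at -1.98 and HIST1H3D at -1.55, and 14 of the 17 points are below 0.

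Among the H2A genes, which encode the histone whose C-terminal tail is ubiquitinated in Polycomb silencing, HIST1H2AC had the lowest fold change of the tested members. It had 4.69, 5.11 and 7.31 CPM in the UC-764864 libraries and 24.2, 16.4 and 27.0 CPM in the DMSO libraries. Every UC-764864 library lay below every DMSO library. Its mean was 5.70 ± 1.41 CPM in UC-764864 against 22.5 ± 5.49 CPM in DMSO (SD, n = 3 each), 3.93-fold lower (log2 fold change -1.98 ± 0.22 SE, 95% interval -2.45 to -1.50, edgeR adjusted p = 0.00133). It was called lower under all 14 alternative settings, with a log2 fold change between -2.19 and -1.79 and an adjusted p of at most 0.0433. HIST1H2AG, of the same class, had 1.71, 1.23 and 2.68 CPM in UC-764864 and 2.96, 2.66 and 2.83 CPM in DMSO (log2 fold change -0.57 ± 0.26 SE, edgeR adjusted p = 0.157). Its UDI0053 value of 2.68 CPM lay above the lowest DMSO value, so the groups overlapped. HIST3H2A, in the small HIST3 cluster, had a log2 fold change of 0.03 with a 95% interval of -0.70 to 0.76.

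Of the H2B genes, which make the core partner of H2A, HIST2H2BE fell. It is known for a polyadenylated mRNA in non-dividing cells. Its values were 1.53, 1.94 and 1.79 CPM in UC-764864 and 4.42, 2.78 and 3.69 CPM in DMSO. Every UC-764864 library was below every DMSO library, with means of 1.75 ± 0.207 CPM in UC-764864 and 3.63 ± 0.82 CPM in DMSO (SD, n = 3 each), 2.08-fold lower (log2 fold change -1.05 ± 0.23 SE, edgeR adjusted p = 0.0163). HIST1H2BK, also known to give polyadenylated mRNA, had 19.3, 17.5 and 20.7 CPM in UC-764864 and 22.6, 20.4 and 18.5 CPM in DMSO. Its groups overlapped, and the 95% interval of its log2 fold change ran from -0.39 to 0.19 (edgeR adjusted p = 0.654). HIST1H2BD stood just short of the threshold, with 1.49, 2.65 and 2.26 CPM in UC-764864 and 4.55, 2.62 and 4.55 CPM in DMSO (log2 fold change -0.88 ± 0.28 SE, edgeR adjusted p = 0.0557). In it DMSO library UDI0055, at 2.62 CPM, lay inside the UC-764864 range, and without that library the gene was called lower (log2 fold change -1.12, adjusted p = 0.0105). It was also called by DESeq2 (adjusted p = 0.0319), without the filter on low counts (0.00227) and after removal of each library's GC trend (0.0131). It was not called with library size alone (adjusted p = 0.0519), RLE factors (0.0525), limma-voom (0.0703) or every deposited row (0.125). Nor was it called in the other fits with a library left out (adjusted p up to 0.224) or without both UDI0052 and UDI0056.

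HIST1H2BH was the member with every UC-764864 library above every DMSO library. It had 0.946, 1.10 and 1.16 CPM in UC-764864 and 0.663, 0.777 and 0.527 CPM in DMSO, and did not pass the test (log2 fold change 0.66 ± 0.29 SE, edgeR adjusted p = 0.141). HIST1H2BN had 1.04, 0.777 and 1.05 CPM in UC-764864 and 1.06, 1.60 and 1.98 CPM in DMSO (log2 fold change -0.65 ± 0.30 SE, edgeR adjusted p = 0.158). Its exons overlap those of HIST1H2AK on the opposite strand and HIST1H2AL on the same strand in GENCODE v29, and whether counting used strand is not given in the sources used here. HIST1H2BC and HIST1H2BJ, the remaining tested H2B members, had log2 fold changes of -0.37 and -0.12 (edgeR adjusted p = 0.332 and 0.823).

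**Figure D3:**
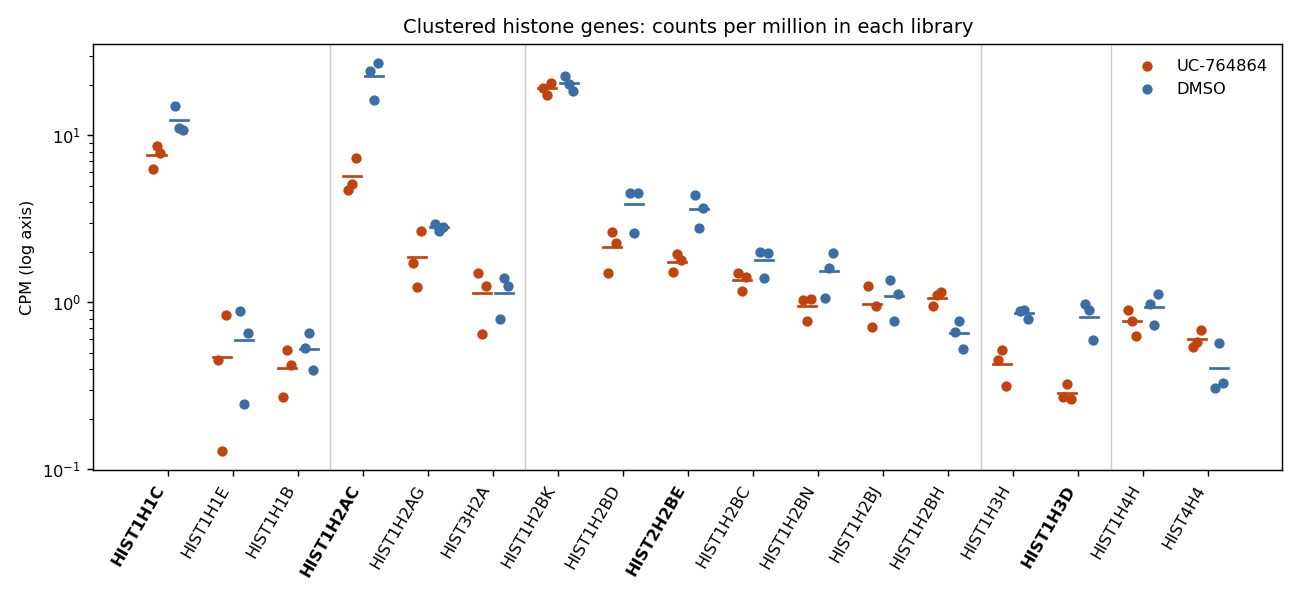
CPM (log axis) of the 17 tested members in each library, UC-764864 left of DMSO for each gene, with bars at the group means and called genes in bold. The 3 UC-764864 points of HIST1H2AC sit between 4.69 and 7.31 and its 3 DMSO points between 16.4 and 27.0, while the points of HIST1H2BK overlap.

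The linker histone gene HIST1H1C fell. Its values were 6.26, 8.67 and 7.84 CPM in UC-764864 and 15.1, 11.1 and 10.7 CPM in DMSO. The groups did not overlap, with means of 7.59 ± 1.22 CPM in UC-764864 and 12.3 ± 2.42 CPM in DMSO (SD, n = 3 each), 1.63-fold lower (log2 fold change -0.71 ± 0.18 SE, edgeR adjusted p = 0.0271). The other tested linker genes were unresolved. HIST1H1E ranged from 0.129 to 0.842 CPM in UC-764864 and from 0.245 to 0.884 CPM in DMSO, and its UDI0052 value came from 2 counts. HIST1H1B had a log2 fold change of -0.46 ± 0.39 SE (edgeR adjusted p = 0.448).

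The H3 genes of the clusters encode the replication-coupled core histone H3. HIST1H3D fell, on few reads: it had 6, 5 and 5 counts in UC-764864 and 22, 22 and 9 counts in DMSO. Scaled, these were 0.270, 0.324 and 0.263 CPM in UC-764864 and 0.972, 0.900 and 0.593 CPM in DMSO, without overlap. The difference was 2.93-fold lower (log2 fold change -1.55 ± 0.37 SE, edgeR adjusted p = 0.0211). HIST1H3D passed the filter on low counts only through its DMSO libraries, where it was high. With no filter it was also called lower (log2 fold change -1.56, edgeR adjusted p = 0.00798). An exon of AL031777.3 overlaps HIST1H3D on the same strand in GENCODE v29. HIST1H3H had 0.451, 0.518 and 0.316 CPM in UC-764864 and 0.884, 0.900 and 0.791 CPM in DMSO, also without overlap, but missed the threshold (log2 fold change -1.02 ± 0.33 SE, edgeR adjusted p = 0.0599). It was called lower once the GC trend was removed (adjusted p = 0.0181), but under no other alternative. Its adjusted p was 0.166 with DESeq2, 0.0893 with no filter and 0.0852 with every deposited row. With a library left out it was 0.0831 to 0.203.

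H4, the partner of H3, is encoded by many genes that give the same protein, and neither tested H4 gene passed. HIST1H4H had 0.901, 0.777 and 0.631 CPM in UC-764864 and 0.972, 0.736 and 1.12 CPM in DMSO (log2 fold change -0.25 ± 0.30 SE, edgeR adjusted p = 0.597). HIST4H4 had 0.541, 0.583 and 0.684 CPM in UC-764864 and 0.309, 0.573 and 0.329 CPM in DMSO (log2 fold change 0.53 ± 0.38 SE, edgeR adjusted p = 0.359). Summed by class over all members, H4 had 2.78 ± 0.18 CPM in UC-764864 and 2.60 ± 0.115 CPM in DMSO, a ratio of 1.07. The ratio was 0.358 for H2A (10.5 ± 2.59 CPM in UC-764864 and 29.2 ± 5.48 CPM in DMSO), or 0.714 without HIST1H2AC (4.75 ± 1.38 CPM in UC-764864 and 6.66 ± 0.341 CPM in DMSO), and 0.499 for H3 (1.46 ± 0.0849 CPM in UC-764864 and 2.93 ± 0.217 CPM in DMSO). H1 and H2B stood between, at 0.631 (8.47 ± 1.29 CPM in UC-764864 and 13.4 ± 2.66 CPM in DMSO) and 0.815 (28.8 ± 1.5 CPM in UC-764864 and 35.3 ± 3.13 CPM in DMSO; SD, n = 3 each). Most of each of these sums was a single gene, so the order of the ratios is not one of whole classes. HIST1H1C held 7.59 CPM in UC-764864 and 12.3 CPM in DMSO, and HIST1H2BK held 19.2 and 20.5 CPM.

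Of the members' counts, HIST1H2AC took 9.45, 10.4 and 12.8% in UC-764864 and 26.5, 22.5 and 31.4% in DMSO. HIST1H2BK took 39.0, 35.7 and 36.2% in UC-764864 and 24.8, 28.0 and 21.4% in DMSO. Neither gene's shares overlapped between the groups. Shares of a total are tied to each other, and the level of HIST1H2BK itself did not pass the test (above). HIST1H1C took 14.7% on average in both groups. Of the members' counts without HIST1H2AC, HIST1H2BK took 43, 39.9 and 41.5% in UC-764864 and 33.8, 36.1 and 31.2% in DMSO, also without overlap.

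Many H2A and H2B genes are paired head to head and share a promoter. In all, 8 pairs of neighbours on opposite strands with overlapping windows had both genes among the members. HIST1H2BF is paired there with HIST1H3D, an H3 gene, through the more upstream annotated start of HIST1H3D. The rest pair an H2A with an H2B gene. HIST1H2AC and HIST1H2BC share 255 bases of the promoter windows, so the window printed above for HIST1H2AC serves both. HIST1H2AC took 75.9, 81.4 and 83.7% of the pair's counts in UC-764864 and 92.4, 92.2 and 93.2% in DMSO. The shares did not overlap, at 80.4 ± 4.02% in UC-764864 and 92.6 ± 0.525% in DMSO (SD, n = 3 each), and the exact two-sided permutation test gave p = 0.1, the smallest that 3 against 3 allows (0.8 after Benjamini-Hochberg adjustment over the 8 pairs). HIST2H2BE shares 265 bases of its window with HIST2H2AC, which had 7, 6 and 7 counts in UC-764864 and 12, 27 and 4 counts in DMSO and was not tested. In the 7 other pairs the split had an exact permutation p between 0.3 and 1.

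The 28 members that were not tested had totals of 10 to 63 counts and at most 0.495 CPM on average. Their means were lower in UC-764864 for 22 and higher for 6, and they summed to 5.25 ± 0.454 CPM in UC-764864 and 7.39 ± 0.623 CPM in DMSO (SD, n = 3 each). With no filter on low counts all 45 members were fitted, and 5 were lower, against 6.89% of all 24326 genes, and 0 were higher, against 3.4%. The 5 were the 4 called members and HIST1H2BD. The 28 had adjusted p-values of 0.152 to 0.986 there. Just inside the limit of 10 counts, HIST1H4D had 4, 0 and 5 counts in UC-764864 and 1, 0 and 0 in DMSO, and HIST1H2BM had 3, 2 and 0 in UC-764864 and 4, 0 and 1 in DMSO. Just outside it, HIST1H4B had 1, 2 and 6 counts in UC-764864 and 0 in each DMSO library, and HIST1H1D had 1, 2 and 3 counts in UC-764864 and 1 in each DMSO library. Near-identical copies such as HIST2H2AA3 and HIST2H4A had 2 counts each in total. How the authors counted reads that map to several copies is not given in the sources used here, so low values of duplicated genes are uncertain.

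HIST2H2BE, HIST1H1C and HIST1H3D kept their calls when UDI0052, UDI0055 or UDI0056 was left out. They kept their direction but not their call when UDI0051, UDI0053 or UDI0054 was left out, with adjusted p-values of 0.0522 to 0.0817, 0.076 to 0.138 and 0.0794 to 0.109. Over all genes, leaving out a library gave 278 to 1729 called lower, against 1097 as analysed. Nor were HIST2H2BE, HIST1H1C and HIST1H3D called when every deposited row was fitted (edgeR adjusted p = 0.0603, 0.0861 and 0.0608). That fit called 125 of all genes lower and included 3799 rows that hold 0 in UDI0055 in unbroken runs. No member lies in those runs. UDI0052 and UDI0056 had the lowest shares of counts in genes of at least 60% GC, at 8.30% against 10.6% and 10.8% in the other UC-764864 libraries and 8.46% against 10.0% and 11.6% in the other DMSO libraries. Without both, the same 4 members were called, of 20 tested, where 1233 of all 13724 genes were lower.

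**Figure D4:**
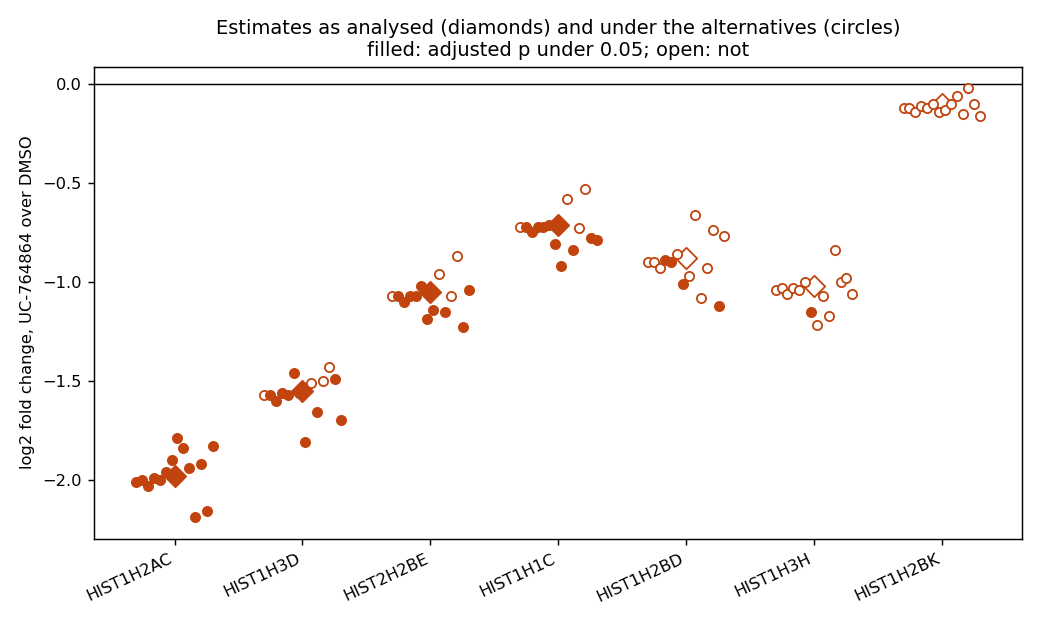
Log2 fold change of UC-764864 over DMSO for 7 members as analysed (diamonds) and under 14 alternative settings (circles), filled where the adjusted p is under 0.05. HIST1H2AC is filled throughout and lies between -2.19 and -1.79, whereas HIST2H2BE, HIST1H1C and HIST1H3D are open under 4 settings each.

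The genes that make, process and carry histones were read from lists around the family, each set beside the median of 0.01 over all genes. As analysed, 5.11% of all 13490 genes were higher and 8.13% lower. With the GC trend removed, 1884 of 11656 genes were higher and 1795 lower. Among histone genes outside the clusters, which supply replacement variants through polyadenylated mRNA, 1 of 11 tested was lower and 0 were higher (median log2 fold change -0.02), against 3 lower with the GC trend removed. The lower gene was H1F0, a linker histone of non-dividing cells, with 7.93, 5.63 and 8.10 CPM in UC-764864 and 12.2, 11.0 and 11.0 CPM in DMSO (log2 fold change -0.65, edgeR adjusted p = 0.0255). Of 8 clustered genes known to give polyadenylated mRNA, 7 were tested and 3 were lower (median -0.71). These are HIST1H2AC, HIST2H2BE and HIST1H1C, so the count adds nothing to the results above.

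Factors of histone mRNA 3′ end formation and decay gave 1 higher and 1 lower of 25 tested (median 0.20). Over all genes 5.11% were higher and 8.13% lower. With the GC trend removed the list gave 9 higher and 1 lower of 23, where 1884 of all 11656 genes were higher. It gave 3 higher with DESeq2 (6.35% of all genes) or with no filter (3.4% of all genes). No factor of the list was called with every deposited row, where 22 of all 14027 genes were higher and 125 lower. FIP1L1, a subunit of the cleavage and polyadenylation machinery, was higher, with 78.3 ± 6.45 CPM in UC-764864 and 54.5 ± 0.84 CPM in DMSO (SD, n = 3 each; log2 fold change 0.52, edgeR adjusted p = 0.0161). ERI1, an exonuclease that trims the histone stem-loop, was lower, with 52.9 ± 5.47 CPM in UC-764864 and 73.4 ± 11.6 CPM in DMSO (log2 fold change -0.47, edgeR adjusted p = 0.0465). SLBP, which binds the stem-loops printed above and is named outside the rule for its role, had 134 ± 6.54 CPM in UC-764864 and 126 ± 15.0 CPM in DMSO (95% interval of the log2 fold change -0.17 to 0.35, edgeR adjusted p = 0.64). Transcription factors and cofactors of histone genes gave 1 higher (GON4L, log2 fold change 0.49, adjusted p = 0.0211) and 1 lower (TBPL1, a TBP-like factor, -0.45, adjusted p = 0.0478) of 18 tested. With the GC trend removed 4 were higher and 0 lower of 17, and TBPL1 had a log2 fold change of -0.05.

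Histone chaperones gave 7 higher and 1 lower of 23 tested (median 0.21), against 5.11% higher and 8.13% lower over all genes. The 5 with the smallest p were SSRP1 and SUPT16H, the subunits of the FACT complex (log2 fold change 0.65 and 0.49), NASP, a chaperone of H3 and H4 (0.52), and CHAF1A and CHAF1B, subunits of the CAF-1 complex that loads H3 and H4 at replication forks (0.56 and 0.47), with edgeR adjusted p-values of 0.0117 to 0.0256. SSRP1 had 513, 494 and 465 CPM in UC-764864 and 299, 370 and 272 CPM in DMSO, without overlap. The lower gene was ASF1A, which hands H3 and H4 to CAF-1 (log2 fold change -0.49, edgeR adjusted p = 0.0494). Its value was 0.01 after removal of the GC trend. The number of chaperones called higher was 0 without UDI0051, without UDI0054 and with every deposited row, 2 without UDI0052 and 3 without UDI0053. Over all genes the number called higher was 690 as analysed, 22 with every deposited row and 62 to 1525 with a library left out.

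S phase enzymes gave 4 higher and 0 lower of 19 tested (median 0.28), against 5.11% higher and 8.13% lower over all genes. The 4 were MCM6 and MCM3, subunits of the replicative helicase, and GINS2 and CDC45, which activate it, with log2 fold changes of 0.39 to 0.41 and edgeR adjusted p-values of 0.0342 to 0.0446. MCM6 had 414, 458 and 388 CPM in UC-764864 and 310, 332 and 316 CPM in DMSO. None of the 19 was called with library size alone, with every deposited row, or without any of UDI0051, UDI0052, UDI0053 and UDI0054. Over all genes, 508 were higher with library size alone, 22 with every deposited row and 62 to 1525 with a library left out. A single enzyme was called higher without UDI0056, and 1 without both UDI0052 and UDI0056. The number was 2 with RLE factors or no filter, 6 with DESeq2 or limma-voom, 8 without UDI0055 and 9 with the GC trend removed. Over all genes, 606 were higher with RLE factors, 827 with no filter, 856 with DESeq2, 706 with limma-voom and 1884 with the GC trend removed. The other RNAs without a poly(A) tail gave 2 higher and 0 lower of 9 tested (median -0.08): SNORD17, a small nucleolar RNA (log2 fold change 0.84, edgeR adjusted p = 0.0103), and RN7SK, which holds P-TEFb inactive (0.70, adjusted p = 0.0318). SNORD17 stayed called whichever library was left out, in fits that called 62 to 1525 of all genes higher and 278 to 1729 lower. The calls of H1F0 and GON4L were lost without any of UDI0051, UDI0052, UDI0053 and UDI0054, those of ERI1, TBPL1 and ASF1A without UDI0051, UDI0053, UDI0054 or UDI0056, that of RN7SK without UDI0051, UDI0053 or UDI0054 and that of FIP1L1 without UDI0051 or UDI0054. Whether carry-over of RNA without a tail or the cell cycle had a part in the histone values was not tested.

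All 8 myeloid leukaemia markers were tested, with summed levels of 6480 to 7530 CPM in UC-764864 and 4260 to 4610 CPM in DMSO. Without LYZ the other 7 summed to 1160 to 1200 CPM in UC-764864 and 1210 to 1310 CPM in DMSO. Over the 8 the median log2 fold change was -0.03, with 1 higher and 1 lower, against 5.11% higher and 8.13% lower over all genes. LYZ, a lysozyme of monocytes and granulocytes, was higher (log2 fold change 0.88, edgeR adjusted p = 0.00141) and HOXA9, a homeobox gene of immature leukaemic cells, lower (-0.73, adjusted p = 0.00647). The lymphoid, epithelial and stromal marker sums were at most 1.21 CPM in UC-764864 and 1.33 CPM in DMSO: B cell markers at 0.777 to 1.21 CPM in UC-764864 and 0.900 to 1.33 CPM in DMSO, T cell markers at 0.453 to 0.541 CPM in UC-764864 and 0.982 to 1.28 CPM in DMSO, and epithelial or stromal markers at 0.368 to 0.777 CPM in UC-764864 and 0.982 to 1.12 CPM in DMSO. Of these, CD3D of the T cell receptor complex was lower (log2 fold change -1.07, edgeR adjusted p = 0.0358; not called by DESeq2, adjusted p = 0.0892), a call kept in 1 of 6 fits with a library left out (without UDI0055; adjusted p up to 0.141 in the others) and lost with every deposited row and without both UDI0052 and UDI0056. MS4A1, CD2 and KRT19 were at 0 in every library. The part of the LYZ and HOXA9 differences in the histone values was not tested.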

How the data were processed

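Per the labels' protocols, 6 poly(A) libraries of MOLM-13 cells were sequenced from both ends at 75 bp. The authors deposited whole-number counts per gene symbol, not normalized. The submitters' processing notes name GRCh37, HISAT2 2.0.5, featureCounts 1.5.2 and FastQC 0.11.7. For the annotation, the strand setting and reads with several hits, the choice is not given in the sources used here. Columns carry a treatment but no replicate number. Totals were 17073654 to 25014437 counts in UC-764864 and 16136156 to 24511499 in DMSO libraries, and 3 counts, the floor, equal 0.123 to 0.198 CPM (counting error only). Library pairs differed by 4.73 to 86.4 chi-square units per degree of freedom, and all 6 libraries were kept. The closest pair was UDI0051 and UDI0053 (4.73), and the next was UDI0052 and UDI0053 (16.7).

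In R 4.3.3, edgeR 4.0.16 (filterByExpr, TMM, quasi-likelihood F test, Benjamini-Hochberg over 13490 genes) was fitted on the 52839 rows held by all libraries, with treatment as the only term, and tested on simulated data. The SE is |log2 fold change| over the root of F. Alternatives used limma 3.58.1, DESeq2 1.42.0, other scalings and filters, GC offsets and left-out libraries. Named genes are called members, the 2 tested members of each class with the most CPM, members at the count limit, and up to 5 called genes per list; others are named as chosen afterwards (members at an unadjusted p under 0.05, ASF1A and SLBP) or complete a class. Members and lists were chosen with earlier results of these data known. Stem-loops and transcript ends were read from GENCODE v29 by symbol, and promoters from RefSeq by gene ID.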

Additional observations from a re-analysis of the deposited data

How the results depend on the processing

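Of the 4 called members, HIST1H2AC was called under all 14 alternatives and the other 3 under 10 of them. With every deposited row, 22 genes were called higher, 125 lower and 1 member lower. Without a filter 1676 genes were lower, and with each library's GC trend removed 1884 were higher, 1795 lower and 6 members lower. Leaving out a library in turn gave 62 to 1525 genes higher, 278 to 1729 lower, 1 to 5 members lower and 0 to 0 members higher. The ratio of the members' share of column totals, UC-764864 over DMSO, was 0.581, and 0.552 to 0.605 without each library. The total of UDI0055 lacks the 3799 rows at 0 that the other totals include, so its share has a smaller base. The scaled sums, whose base is the tested genes among the rows that all libraries hold, had a ratio of 0.623. HIST1H1E changed sign, with values of -0.88 to 0.24 when a library was left out (0.09 without UDI0052, 0.24 without UDI0054) and 0.17 without UDI0052 and UDI0056. ASF1A and SLBP also did with the GC trend removed, to 0.01 and -0.06. The cause was not tested. No paired analysis was possible because the table's columns carry no replicate numbers. At this depth the 28 members with 10 to 63 counts in total were not testable after the filter.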
